A study of Mus musculus with 2 samples.

Results

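Lymphatic endothelial cells line the lymphatic vessels, and 227 of them were found among 21231 kept barcodes of back skin from imiquimod-treated mice. Single-cell RNA sequencing gave 1 library from wild-type mice (WT) and 1 from mice lacking Chrna5 (KO), the gene of an accessory subunit of nicotinic acetylcholine receptors. The cells were chosen by measured values, with no test of those values. A barcode was kept with 1000 or more UMIs (unique molecular identifiers, each standing for 1 captured RNA molecule) and 200 or more genes, and with mitochondrial transcripts at no more than 10% of its UMIs. It counted as lymphatic endothelial with a UMI in at least 2 of the 4 genes Prox1, Mmrn1, Flt4 and Reln and at least 1 UMI over Pecam1, Cdh5 and Lyve1. The keratins Krt5 and Krt14 together had to stay under 0.5% of its UMIs, and so did the fibroblast genes Col1a1, Col1a2, Col3a1 and Dcn.

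Both groups were female mice of 6 to 8 weeks, and the KO line had been backcrossed to C57BL/6N, while the text on tissue extraction names C57BL/6J. Imiquimod, which activates a Toll-like receptor and gives a psoriasis-like inflammation, was applied to the shaved back as 62.5 mg of a 5% cream on 6 days in a row, and skin was taken on day 7. Skin was digested with collagenase and live cells were sorted as SytoxBlue-negative. The labels name 5 mice in a treated group but do not say whether a library pools them, and a group given the cream base was not analysed here. Each genotype is therefore 1 library: no test between genotypes was possible, and every interval covers counting error only. Of Chrna5 itself, 12 UMIs lay in 12 of 11626 kept WT barcodes and 6 UMIs in 6 of 9605 KO barcodes. The labels do not say which part of the gene is deleted, so reads from the rest of the gene could be counted in either library and these UMIs do not check the genotype. Lymphatic endothelial cells held 0 Chrna5 UMIs in WT and 1 in KO.

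As background, lymphatic capillaries of the skin take up tissue fluid and are the route by which dendritic cells and lymphocytes leave it. Prox1, a homeobox transcription factor, sets and maintains lymphatic identity, and the growth factor VEGF-C acts on these cells through the receptor VEGFR3, the product of Flt4. The chemokine CCL21 made by lymphatic endothelium guides cells bearing the receptor CCR7 into the vessel, and the hyaluronan receptor LYVE1 serves as a docking site at its wall.

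In WT, 84 of 11626 kept barcodes were lymphatic endothelial (0.723%, exact Clopper-Pearson 95% interval 0.577 to 0.894), and in KO 143 of 9605 (1.49%, 1.26 to 1.75). The KO share was higher, and the kept barcodes differed in makeup as well: keratinocytes were 25% of them in WT and 8.14% in KO. The digestion, the live-cell sort and this makeup all bear on the share, and their part in it was not tested. Median depth was 4740.5 UMIs in the WT lymphatic cells (range 1079 to 39801) and 6635 in KO (1065 to 103548), for 641672 and 1904619 UMIs in all. The 2 libraries have 49 barcode sequences in common, of which 0 were lymphatic endothelial in both.

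Of the WT cells, 23 held 2, 23 held 3 and 38 held all 4 of the marker genes. In KO the numbers were 18, 38 and 87. Levels are given as CPM, UMIs per 1000000 UMIs summed over the lymphatic endothelial barcodes of a library. Just inside the limit, the 23 WT barcodes with 2 markers held Ccl21a, which the rule did not use, at 11268 CPM, and the 18 KO barcodes at 974 CPM. Just outside it, barcodes with 1 marker that met all other limits numbered 31 in WT and 39 in KO, and their Ccl21a was 54.3 and 10.3 CPM. In summed UMIs the edge of the rule was thus sharp in WT and less so in KO, where barcodes with 2 markers lay between those with 4 markers (6194 CPM) and those outside. Deep barcodes weigh most in such sums. Over Prox1, Mmrn1, Flt4, Lyve1, Reln and Ccl21a, KO barcodes of 31631 and 11701 UMIs each held 2 UMIs. They held 97 and 46 of vascular markers. The deepest KO barcode, with 103548 UMIs or 5.44% of the KO lymphatic total, held 4 over these genes and 32 of fibroblast markers. Another, of 97185 UMIs, held 65 over these genes and 541 of keratinocyte markers. All these barcodes lie outside the narrower set described below.

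All 8 lymphatic markers were detected in both libraries and summed to 14121 CPM in WT against 11686 CPM in KO. The list includes Prox1, Mmrn1, Flt4 and Reln, so the rule makes every barcode positive. The 6 pan-endothelial markers summed to 2317 and 2263 CPM. Vascular markers summed to 913 CPM in WT against 455 CPM in KO, with Sox17 at 0 in WT. The 8 keratinocyte markers summed to 1702 and 733 CPM in 79 WT and 122 KO barcodes, the 8 markers of monocytes and macrophages to 1177 and 155 CPM, the 6 fibroblast markers to 182 and 193 CPM, and the 6 mural markers to 185 and 111 CPM. Of the 4 neutrophil markers, S100a8 and S100a9 gave 773 CPM in WT, spread over 80 of 84 barcodes, and 18.4 CPM in KO, while Retnlg and Csf3r were at 0 in both. The 6 T cell markers reached 17.1 CPM in WT against 3.15 CPM in KO, and Schwann, melanocyte and mast cell markers held at most 3 UMIs a library.

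Some barcodes held markers of another cell type in number, so each result was also computed in a narrower set, chosen after the data were seen. It keeps barcodes whose UMIs in Prox1, Mmrn1, Flt4, Lyve1, Reln and Ccl21a came to at least 3 times those of every other type's markers: 73 of 84 in WT and 127 of 143 in KO. The 11 WT barcodes left out held 33.9% of the lymphatic UMIs and the 16 KO barcodes 22%. Keratinocyte markers were the strongest in 5 of them in each library, and macrophage markers in 3 in WT and 5 in KO. In the narrower set, macrophage markers were at 104 and 37.7 CPM and keratinocyte markers at 710 and 191 CPM.

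**Figure D1:**
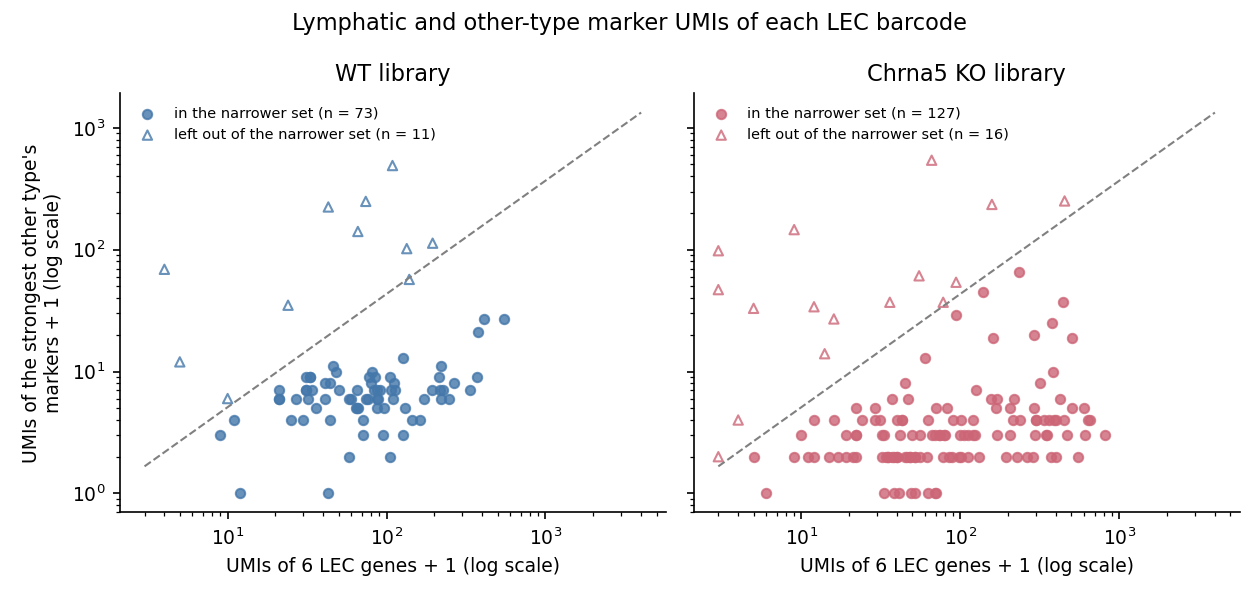
Each point is 1 lymphatic endothelial barcode of the WT or KO library, with its UMIs in 6 lymphatic genes on the horizontal axis and the UMIs of the strongest marker list of another cell type on the vertical axis, both on log scales. Points below the dashed line form the narrower set, 73 of 84 WT and 127 of 143 KO barcodes.

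Against the vascular endothelial cells of the same library (81 barcodes in WT and 206 in KO, cut by their own markers), the difference is a description, since marker genes chose both classes. Ccl21a was 9619 CPM in the WT lymphatic cells with 0 UMIs in WT vascular cells, at least 3856-fold higher against a floor of 3 UMIs, and in KO 5512 CPM against 0.659 CPM. Genes that the rule did not use lay far apart as well. Slc38a4, an amino acid transporter, was 125 against 0.831 CPM in WT and 182 against 0.329 CPM in KO. Ackr2, a decoy receptor that removes inflammatory chemokines, was 106 against 0.831 CPM in WT and 153 against 0.988 CPM in KO. Fgl2, a fibrinogen-like protein, was 2171 against 63.2 CPM in WT and 2704 against 44.1 CPM in KO. Prox1, whose excess the rule itself sets, was 97.2-fold (95% interval 44.1 to 267) above vascular cells in WT and 933-fold (319 to 4526) in KO.

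In the other direction, 10 genes were chosen for their excess in vascular cells. Fabp4, a fatty acid carrier of blood capillaries, was 6341 CPM in vascular cells of WT and 394 CPM in the lymphatic ones, 16.1-fold (14.2 to 18.3), and 20.8-fold (19.0 to 22.8) in KO. Ackr1, the chemokine-binding receptor of venules, was 17.1-fold (8.15 to 42.9) higher in vascular cells in WT and 65.0-fold (22 to 317) in KO. Vwf, the clotting protein stored in endothelial granules, was 12.7-fold (7.48 to 23.5) and 13.2-fold (8.32 to 22.1) higher. Of the lymphatic markers that the rule did not use, Ccl21a and Pdpn lay above vascular cells in both libraries. Nrp2 did so in KO only. It was 284 CPM in lymphatic against 308 CPM in vascular cells of WT, and 424 against 306 CPM in KO.

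**Figure D2:**
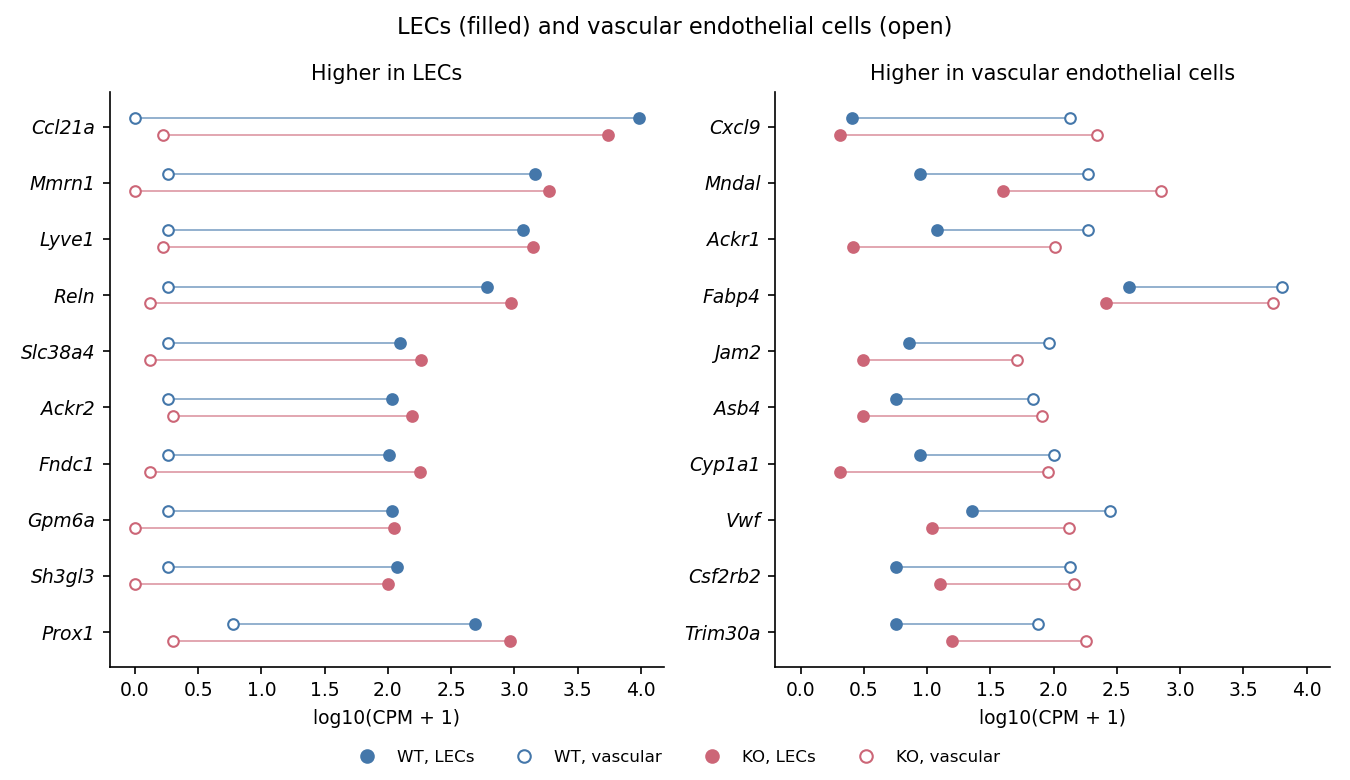
CPM of the 20 genes that set lymphatic apart from vascular endothelial cells, 10 in each direction, in each class of each library, as log10(CPM + 1). Ccl21a, Mmrn1 and Lyve1 sit above 1000 CPM in lymphatic cells of both libraries and below 1 CPM in vascular cells, and Fabp4 sits at 6341 CPM in WT against 5389 CPM in KO vascular cells.

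Between genotypes, the fate genes of lymphatic endothelium had ratios under 2-fold in summed UMIs, with upper bounds past 2 for Prox1, Maf and Nr2f2. The identity list holds Prox1, Mmrn1, Flt4, Reln and Lyve1, which also chose the barcodes in both libraries. Their likeness between libraries is therefore partly set by the rule. Over all 7584 genes with at least 20 UMIs in the 2 libraries together, 719 (9.48%) were at least 2-fold higher in the KO library and 371 (4.89%) at least 2-fold lower, and the median gene was 0.12 higher on the log2 scale, so lists are read against that shift. In the narrower set the shares were 8.78% and 3.94% of 6480 genes and the median was 0.07. Of 19 measured identity genes, 0 lay past 2-fold in either direction, with a median of 0.32, and of 0.10 in the narrower set. Prox1 was 485 CPM in WT against 921 CPM in KO, 1.90-fold (1.68 to 2.15) higher, and 1.64-fold in the narrower set. Averaged so that each barcode counts equally, it was 0.54 higher in log2 against 0.93 from summed UMIs. With each barcode thinned to 1000 UMIs it was 0.37 higher. Then 45.2% (34.3 to 56.5) of WT and 48.3% (39.8 to 56.8) of KO barcodes held a Prox1 UMI. The transcription factor Maf, at 217 and 404 CPM, was 1.87-fold (1.56 to 2.25) higher, and 0.63 higher in log2 after thinning. Nr2f2, a factor which switches on Prox1 in the embryo, was 101 and 184 CPM, 1.81-fold (1.39 to 2.40) higher. With equal weight per barcode, Nr2f2 was 0.29 higher in log2.

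The surface and secreted markers were closer. Lyve1 was 1166 CPM in WT against 1402 CPM in KO, and Mmrn1, a matrix glycoprotein, 1457 and 1890 CPM. Reln, a glycoprotein secreted by lymphatic endothelium, was 608 and 942 CPM, and Flt4 142 and 214 CPM. Pdpn, the podoplanin that binds platelet CLEC-2, was 362 and 382 CPM, Nrp2, a co-receptor of VEGFR3, 284 and 424 CPM, and Nts, the neurotensin precursor, 1057 and 1480 CPM. In the narrower set, which is itself cut by UMIs of Lyve1, Mmrn1, Reln and Flt4, Lyve1 came to 1.07-fold (0.986 to 1.17) and Mmrn1 to 1.11-fold, while Reln was 1.40-fold (1.25 to 1.58), Flt4 1.38-fold and Nrp2 1.34-fold higher in KO. With each barcode thinned to 1000 UMIs, Flt4 and Pdpn turned lower in KO, to -0.40 and -0.57 in log2. Flt4 was then in 20.2% of WT and 16.8% of KO barcodes, and Pdpn in 40.5% and 25.9%. The thinned shares of Reln, 39.3% and 59.4%, and Nrp2, 19.0% and 25.9%, stayed higher in KO. Cp, the copper oxidase ceruloplasmin, was 357 and 285 CPM, and Clca3a1 156 and 127 CPM. Tbx1 was 70.1 and 74.6 CPM, Stab1 95.1 and 110 CPM, Itga9 35.8 and 30.5 CPM, Thy1 45.2 and 49.9 CPM and Sox18 14.0 and 17.9 CPM, all with intervals that include 1. Stab2 held 0 UMIs in WT and 1 in KO, and Lcp2 2 and 0.

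Ccl21a was the identity gene that differed most downwards. It was 9619 CPM in WT against 5512 CPM in KO, 1.75-fold (1.69 to 1.80) lower in the KO library and 1.96-fold lower in the narrower set. Per barcode, the median was 10596 CPM in WT (quartiles 3977 and 16357) and 5142 CPM in KO (2832 and 8791), so the median and both quartiles were lower in KO while the ranges overlapped. With each barcode thinned to 1000 UMIs, 89.3% of WT and 83.9% of KO lymphatic barcodes held a Ccl21a UMI, against 95.2% and 89.5% unthinned and 0 of 81 and 0 of 206 thinned vascular barcodes.

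The mouse genome carries near-identical copies of this gene, which limits what the count means. Ccl21a lies at chr4:42772860-42773993 on the minus strand (mm10, GENCODE M21). Over the 402 bases compared, the Ccl21b transcript differs from Ccl21a at 2 positions, T159A and C269T, counted from 1 at the 5′ end of the Ccl21a transcript with the Ccl21a base first. Gm21541 differs at 6 of 870 bases and Gm13304 at 5 of 837. Shown is the 30-base stretch of exon 3 around the second of those positions (chr4:42773519-42773548, minus strand, for Ccl21a), with the differing base in capitals.
Ccl21a: gttctCaccccggaagcactctaagcctga
Ccl21b: gttctTaccccggaagcactctaagcctga
The lymphatic cells held 6172 UMIs under Ccl21a in WT and 10498 in KO, 37 and 48 under Gm21541, and 0 under Ccl21b, Ccl21c, Gm13304 and Gm10591. The sources used here do not give how reads that fit several copies were counted, so the level belongs to the Ccl21a-like copies together.

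The summed UMIs of chemokines that draw in monocytes and neutrophils were lower in the KO library. Of 24 measured leukocyte traffic genes, 8 were at least 2-fold lower and 1 was higher, against 4.89% and 9.48% of all genes, with a median of -0.01. Ccl2, the main attractant of monocytes, was 7702 CPM in WT against 3552 CPM in KO, 2.17-fold (2.09 to 2.25) lower. Ccl7, its neighbour in the genome with overlapping receptors, was 1376 and 610 CPM, 2.26-fold (2.07 to 2.47) lower. Both kept this size in the narrower set, at 2.35-fold and 2.44-fold. Cxcl1, an attractant of neutrophils, was 2495 and 1469 CPM, 1.70-fold (1.60 to 1.81) lower. Csf1, the growth factor of macrophages, was 148 and 62.0 CPM, 2.39-fold (1.80 to 3.16) lower. Cxcl10, an interferon-induced chemokine, was 612 and 380 CPM, but 49.1% of its WT UMIs came from 1 barcode, and without the largest barcode of each library it was 0.19 higher in KO on the log2 scale.

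The share of barcodes holding Ccl2, Cxcl1 or Csf3 differed less between the libraries than the summed levels did. Per barcode, the Ccl2 median was 1141 CPM in WT (upper quartile 8882) and 958 CPM in KO (upper quartile 3906), and at 1000 UMIs a barcode 57.1% and 55.2% of the lymphatic barcodes held a Ccl2 UMI. For Cxcl1 the median was 0 CPM in WT and 297 CPM in KO, the reverse of the sums, while the highest barcode reached 24969 and 10979 CPM. Its thinned share was 33.3% (23.4 to 44.5) in WT and 39.9% (31.8 to 48.4) in KO, and that of Csf3, the granulocyte growth factor, 29.8% and 30.8%. Ccl7 was in 32.1% (22.4 to 43.2) of WT and a smaller 22.4% (15.8 to 30.1) of KO barcodes, with overlapping intervals. Fibroblasts, which make Ccl2 themselves, held a Ccl2 UMI in 79.7% and 76.7% of thinned barcodes, and vascular cells in 38.3% and 25.2%.

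Adhesion molecules split. Icam1, which leukocyte integrins bind, was 1325 CPM in WT against 1763 CPM in KO, 1.33-fold (1.23 to 1.44) higher. Selp, which encodes P-selectin, was 411 and 79.3 CPM, 5.19-fold (4.23 to 6.38) lower, and Vcam1 111 and 35.2 CPM, 3.15-fold (2.22 to 4.46) lower. These came from few barcodes: 12 of 84 WT and 18 of 143 KO barcodes held Selp, with 39.8% and 35.1% of it in the largest, and 9 and 17 held Vcam1. Vascular cells of the same libraries held Selp at 1250 and 761 CPM, and the part of vascular RNA in the lymphatic value was not tested. Sele, the E-selectin gene, was 49.9 and 16.3 CPM in 5 and 6 barcodes, Icam2 29.6 and 12.6 CPM, and Mrc1, also a macrophage gene, 48.3 and 15.8 CPM. Mrc1 was only 1.23-fold lower in the narrower set.

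The measured genes of sphingosine-1-phosphate signalling and chemokine clearance stayed under 2-fold in summed UMIs. S1pr1, the receptor lymphocytes use to follow sphingosine-1-phosphate and which also steadies endothelial junctions, was 413 and 402 CPM. Sphk1, which makes that lipid, was 73.2 and 134 CPM, and Spns2, which exports it, 26.5 and 46.7 CPM. Ackr2 was 106 and 153 CPM, Ackr3, a scavenging receptor of CXCL12 and adrenomedullin, 319 and 364 CPM, Sema3a, a guidance cue, 143 and 148 CPM, Aplp2 826 and 1163 CPM and Il7, the survival factor of lymphocytes, 17.1 and 26.8 CPM. At 1000 UMIs a barcode the clearance receptors turned direction, to -0.31 for Ackr2 and -0.33 for Ackr3 in log2 of KO over WT, and their shares of barcodes were 13.1% and 12.6%, and 33.3% and 28%. Cd274, the checkpoint ligand PD-L1, was 34.3 and 83.5 CPM, 2.43-fold (1.55 to 4.0) higher. Vascular cells held Cd274 at 111 and 739 CPM, so free RNA from them could give a value of this size, which was not tested. Cxcl12 was 10.9 and 11 CPM, Cx3cl1 held 5 and 2 UMIs, Ackr4 0 and 2, and Ccl19 was at 0 in both. The remaining traffic genes were too sparse to measure: Cd99l2 held 0 and 14 UMIs, L1cam 4 and 10, Sphk2 5 and 9, Jam2 4 and 4, and Jam3 2 and 2.

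**Figure D3:**
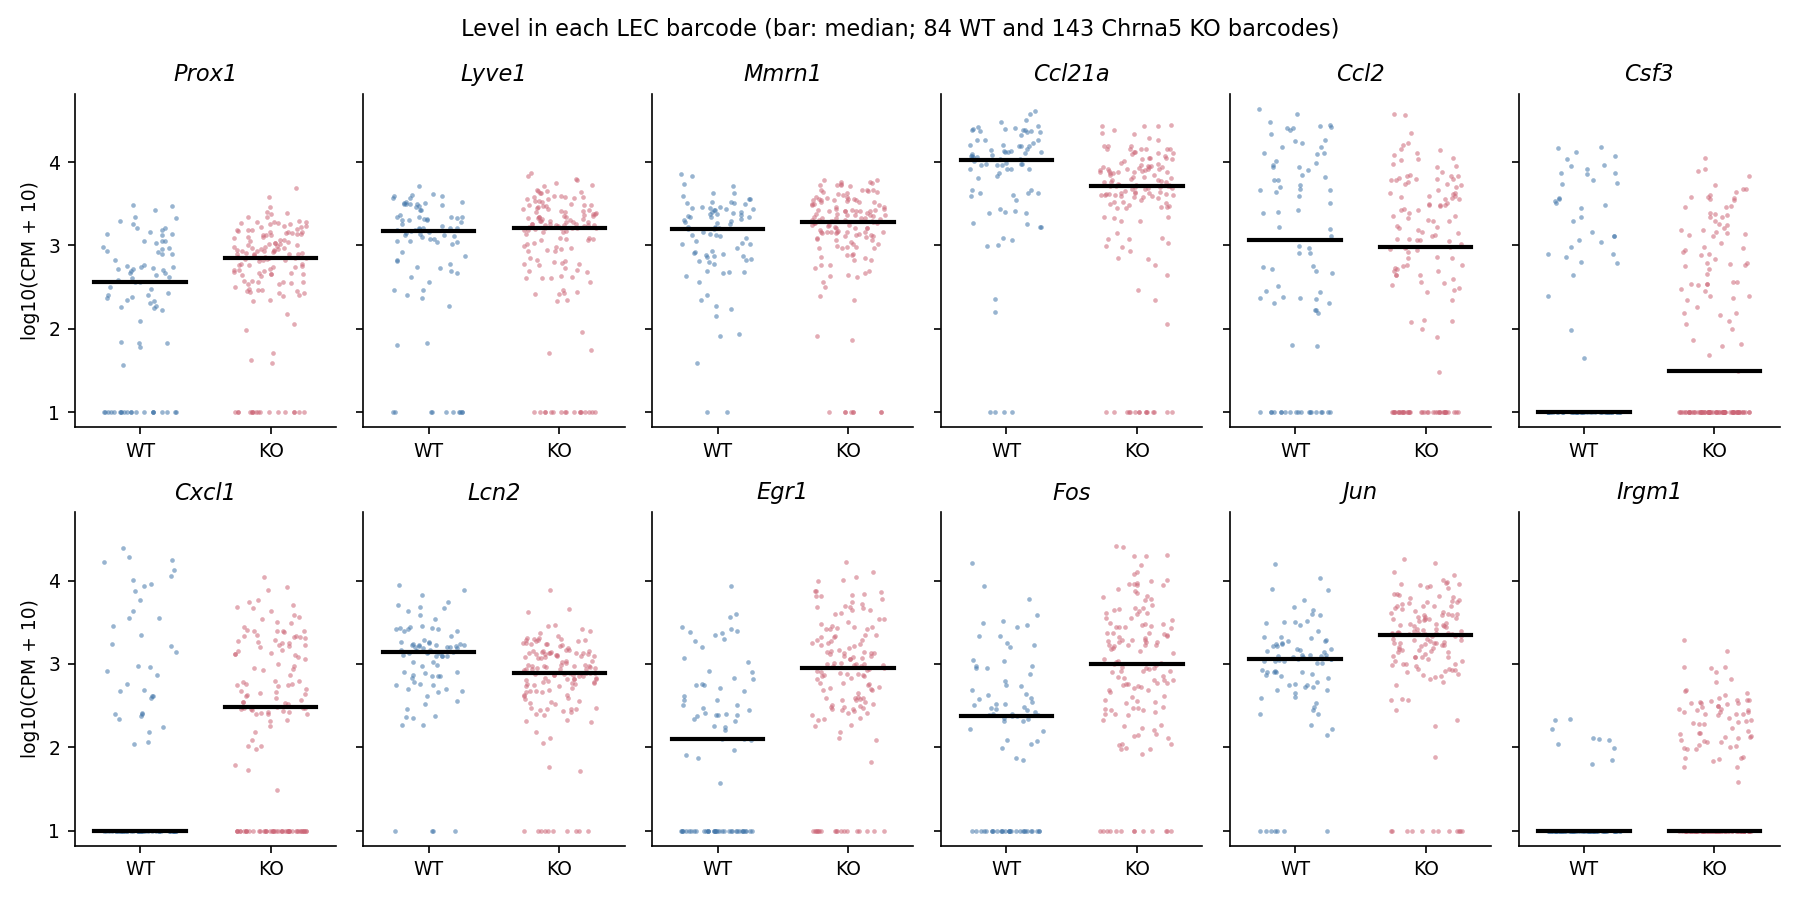
Each point is 1 lymphatic endothelial barcode and each bar the median of its library, on a log10(CPM + 10) scale, for 12 genes. Median Ccl21a is 10596 CPM in WT against 5142 CPM in KO and median Egr1 116 and 888 CPM, while Lyve1 and Mmrn1 overlap throughout.

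Genes of the NF-kB and IL-17 response, which act together in psoriasis-like skin, moved in both directions. Of 26 measured members, 9 were at least 2-fold lower and 1 higher, against 4.89% and 9.48% of all genes. Their median was -0.46. Leaving out the 8 measured members whose level was under 20% of that in another cell class, which free RNA could give, the median was -0.065. Csf3 was 2060 CPM in WT against 1106 CPM in KO, 1.86-fold (1.74 to 2.00) lower and 2.17-fold in the narrower set. Cxcl2, another neutrophil attractant, was 4082 and 3043 CPM, and Lcn2, the iron-binding lipocalin, 1641 and 833 CPM, 1.97-fold (1.82 to 2.13) lower. Nfkb2 was 63.9 and 31.5 CPM. Il6, a secreted cytokine and the member past 2-fold higher, was 46.8 and 141 CPM, 3.01-fold (2.06 to 4.55). The inhibitors Nfkbia, at 4652 and 6540 CPM, and Tnfaip3, at 195 and 320 CPM, were 1.41-fold (1.35 to 1.46) and 1.64-fold (1.35 to 2.01) higher, and Sod2, the mitochondrial antioxidant enzyme, was 340 and 516 CPM.

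The largest differences in that list belonged to genes that other cells make in excess. S100a8 was 443 CPM in 70 of 84 WT barcodes and 11.6 CPM in 11 of 143 KO barcodes, and S100a9 330 and 6.83 CPM. Vascular cells showed both genes at similar levels, S100a8 at 195 CPM in WT against 5.60 CPM in KO. Saa3, at 48.3 and 1.58 CPM, and the complement gene C3, at 74.8 and 20.5 CPM, were also under 20% of another class. Lcn2 differed from these: its thinned share was 75% of WT and 58.0% of KO lymphatic barcodes, against 19.8% and 3.40% of vascular barcodes and 32.2% and 1.20% of fibroblasts. Il6 was 46.8 and 141 CPM in the lymphatic cells and 531 and 871 CPM in vascular cells. The part of free RNA in S100a8, S100a9, Saa3, C3 and Il6 was not tested.

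Chemokines were not spread evenly over the cells. A split at 1000 CPM of Ccl2, chosen after the data were seen, put 42 WT barcodes above and 42 below, and 71 and 72 in KO; 19 WT and 39 KO barcodes held no Ccl2, and 10 and 30 lay between 500 and 2000 CPM. Ccl7 was in 35 of the 42 high and 8 of the 42 low WT barcodes, at 2232 and 70.9 CPM, and in 53 of 71 and 17 of 72 in KO, at 922 and 108 CPM. Csf3 was 3052 CPM in the high and 547 CPM in the low barcodes of WT and 1573 and 356 CPM in KO. Cxcl1 was 3849 and 429 CPM in WT and 2034 and 562 CPM in KO. The chemokines therefore shared barcodes in both libraries, and their summed levels within the high barcodes were lower in KO. The medians per high barcode were lower in KO for Ccl7, at 1411 and 397 CPM, and Csf3, at 1023 and 593 CPM. They were higher in KO for Cxcl1, at 167 and 923 CPM, and Cxcl2, at 404 and 1840 CPM. Cxcl1 was in 23 of 42 WT and 60 of 71 KO high barcodes. The lymphatic markers differed less between high and low barcodes than the chemokines did. In WT, Ccl21a was 9863 and 9246 CPM, Lyve1 1094 and 1275 CPM, Mmrn1 1406 and 1535 CPM and Prox1 519 and 433 CPM. In KO, Lyve1 was 1427 and 1362 CPM, but Ccl21a, at 6787 and 3465 CPM, Mmrn1, at 2153 and 1467 CPM, and Prox1, at 1060 and 699 CPM, were higher in the barcodes high in Ccl2.

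Immediate early genes were on the opposite side. Jun was 970 CPM in the high and 1948 CPM in the low WT barcodes, and 2667 and 2821 CPM in KO. Fos was 544 and 964 CPM in WT and 1619 and 2650 CPM in KO, and Hes1, a Notch target, 160 and 358 CPM in WT and 420 and 692 CPM in KO. The high barcodes were also the deeper ones, with a median of 6496.5 against 4330 UMIs in WT and 12301 against 4027 in KO, and the part of depth was not tested. Over the 84 WT and 143 KO barcodes, which share library and depth, Spearman's rho of Ccl2 with Ccl7 was 0.76 and 0.60, and 0.60 and 0.52 at 1000 UMIs a barcode. That of Egr1 with Fos was 0.45 and 0.76, and that of Ccl2 with Fos -0.31 and -0.33. These are descriptions, taken from 16 pairs.

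**Figure D4:**
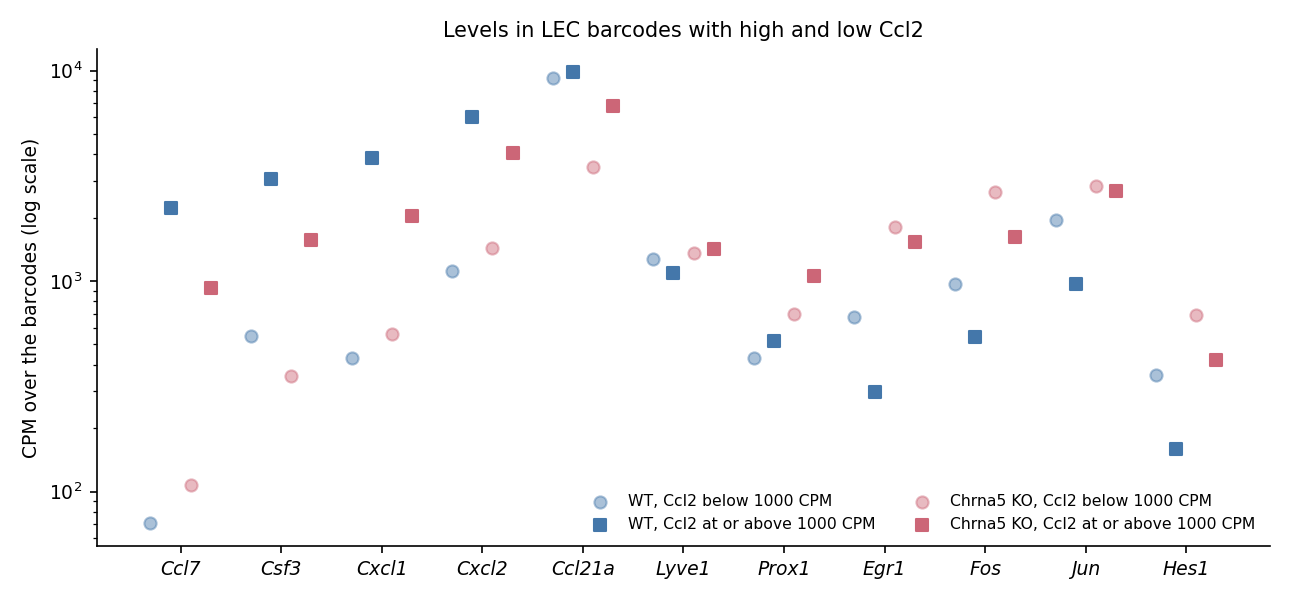
CPM on a log axis of 11 genes in lymphatic endothelial barcodes with Ccl2 at or above 1000 CPM and below it, for each library. Ccl7, Csf3 and Cxcl1 lie higher in the high barcodes of both libraries (Ccl7 at 2232 against 70.9 CPM in WT), and Fos and Hes1 lie lower.

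The immediate early genes, which cells switch on within minutes of a stimulus, were higher in the KO library. Of 22 measured members, 7 were at least 2-fold higher and 0 lower, against 9.48% and 4.89% of all genes. Their median was 0.73 against 0.12 for all genes. Egr1, a zinc finger transcription factor, was 446 CPM in WT against 1630 CPM in KO, 3.66-fold (3.24 to 4.14) higher. Fos, the partner of Jun in the AP-1 factor, was 711 and 2015 CPM, 2.84-fold (2.57 to 3.13) higher. Jun was 1357 and 2726 CPM, 2.01-fold (1.87 to 2.16) higher, and Junb 1166 and 2251 CPM. In the narrower set, Egr1 was 3.87-fold and Fos 3.61-fold higher. Per barcode, the Egr1 median was 116 CPM in WT (quartiles 0 and 514) and 888 CPM in KO (294 and 2181). At 1000 UMIs a barcode, 21.4% (13.2 to 31.7) of WT and 58.7% (50.2 to 66.9) of KO lymphatic barcodes held an Egr1 UMI, against 57.1% and 87.4% unthinned.

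Other members past 2-fold were Fosl2, at 101 and 261 CPM, Nr4a1, a nuclear receptor, at 99.7 and 255 CPM, Egr3, at 23.4 and 59.3 CPM, and Zfp36, which speeds the decay of cytokine messages, at 454 and 952 CPM. Not all members followed: Ier3 was 1135 CPM in both libraries and Myc 251 and 246 CPM. Heat shock genes had a median of 0.41 (0.62 in the narrower set), with 1 of 14 past 2-fold higher, beside 9.48% of all genes. The chaperone genes Hspa1a and Hspa1b were 818 and 1789 CPM and 1354 and 2441 CPM, 2.19-fold (1.99 to 2.40) and 1.80-fold (1.68 to 1.94) higher. Counting each barcode equally, Hspa1a was 0.50 higher in log2 against 1.13 from summed UMIs. Hspd1, a mitochondrial chaperone, was 330 and 215 CPM, but 29.7% of its WT UMIs came from 1 barcode. The narrower set had it 1.18-fold higher. It stayed lower in KO after thinning, at -0.32 in log2, and with equal weight per barcode, at -0.17.

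These genes differed between the libraries in other cells too. Egr1 was 4.16-fold (3.76 to 4.60) higher in the KO vascular cells and 2.37-fold (2.32 to 2.41) in fibroblasts. Fos was 2.58-fold and 2.19-fold higher there, and Hspa1a 2.71-fold and 2.52-fold. The difference was therefore present in all 3 classes, and handling of the 2 preparations and genotype cannot be told apart with 1 library each. Ccl2 was 1.97-fold lower in vascular cells, near the lymphatic value, and 1.11-fold lower in fibroblasts. Cxcl1 was 1.05-fold and 1.07-fold higher in those 2 classes, against 1.70-fold lower in the lymphatic cells, and Icam1 was 1.78-fold lower in vascular cells, against 1.33-fold higher.

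Interferon-stimulated genes were split. Of 25 measured members, 6 were at least 2-fold higher and 3 lower in the KO library, against 9.48% and 4.89% of all genes. Their median was 0.46. Of the 6 higher, Iigp1, Ifit3, Ifi44 and Gbp4 were under 20% of their vascular level, and without such genes the median was 0.20. Irgm1, a GTPase induced by interferon-gamma, was 28.1 CPM in 10 of 84 WT barcodes and 140 CPM in 70 of 143 KO barcodes, 5.00-fold (3.1 to 8.56) higher. Igtp, of the same GTPase family, was 10.9 and 48.3 CPM, 4.43-fold (2.06 to 11.3) higher, and Rnf213, a large ubiquitin ligase outside the list, 28.1 and 194 CPM, 6.91-fold (4.31 to 11.8) higher. In the narrower set Irgm1 was 7.36-fold and Igtp 5.42-fold higher. At 1000 UMIs a barcode, Irgm1 was in 1 of 84 WT and 17 of 143 KO barcodes, against 9 of 81 and 65 of 206 vascular cells and 25 of 2393 and 113 of 2504 fibroblasts. The KO library was higher in these genes outside the lymphatic cells as well. In vascular cells Irgm1 was 160 and 407 CPM, 2.55-fold (2.19 to 2.98), Igtp 2.53-fold and Rnf213 2.54-fold higher, and in fibroblasts the ratios were 4.66, 3.91 and 2.34. The part of RNA from other cells in the lymphatic values was not tested.

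Rsad2 and Oasl1, antiviral genes driven mainly by type I interferon, went the other way. Rsad2, also called viperin, was 768 CPM in WT against 225 CPM in KO, 3.42-fold (3.00 to 3.90) lower, and Oasl1 76.4 and 11.6 CPM. Both rested on few cells: Rsad2 was in 17 WT and 36 KO barcodes, with 45.6% of the WT UMIs in 1, and Oasl1 in 4 and 9, with 67.3% in 1. Without the largest barcode of each library Rsad2 was still 1.84 lower on the log2 scale. Ifit2 was 34.3 and 15.2 CPM in 7 and 11 barcodes, and Ifit1 137 and 94.0 CPM. In vascular cells the KO library was higher for these genes, 6.68-fold (5.93 to 7.54) for Rsad2 and 4.51-fold (4.01 to 5.10) for Ifit1, and in fibroblasts 4.62-fold and 3.82-fold. The difference between classes was not tested. Isg15, a ubiquitin-like modifier, was 178 and 182 CPM and Ifitm3 3698 and 3741 CPM, level between the libraries in summed UMIs. Isg15 was lower in KO under 2 alternatives, at -0.42 in log2 in the narrower set and -0.70 after thinning to 1000 UMIs. Irf1 was 196 and 379 CPM, 1.93-fold (1.60 to 2.35) higher.

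The promoters of 3 of these genes are shown because Irgm1 and Igtp lay opposite to Rsad2. Each is the 250 bases before the RefSeq start (GRCm38.p6), written 5′ to 3′ on the gene's strand: Irgm1 at chr11:48871421-48871670 (minus), Igtp at chr11:58199306-58199555 (plus) and Rsad2 at chr12:26456453-26456702 (minus). Capitals mark an interferon-response-like motif (GAAA, any 2 bases and another GAAA) or a gamma-activated-site-like motif, TTCNNNGAA, on either strand.
Irgm1: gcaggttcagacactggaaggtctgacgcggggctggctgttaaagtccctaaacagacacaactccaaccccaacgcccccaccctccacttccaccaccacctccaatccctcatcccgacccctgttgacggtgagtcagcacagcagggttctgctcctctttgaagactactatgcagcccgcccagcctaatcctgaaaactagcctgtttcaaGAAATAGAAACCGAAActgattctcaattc
Igtp: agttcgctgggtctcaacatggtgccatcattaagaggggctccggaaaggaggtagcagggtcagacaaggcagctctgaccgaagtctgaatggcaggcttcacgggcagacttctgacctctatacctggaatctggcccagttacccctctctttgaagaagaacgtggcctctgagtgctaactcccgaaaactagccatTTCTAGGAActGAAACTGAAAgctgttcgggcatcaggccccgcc
Rsad2: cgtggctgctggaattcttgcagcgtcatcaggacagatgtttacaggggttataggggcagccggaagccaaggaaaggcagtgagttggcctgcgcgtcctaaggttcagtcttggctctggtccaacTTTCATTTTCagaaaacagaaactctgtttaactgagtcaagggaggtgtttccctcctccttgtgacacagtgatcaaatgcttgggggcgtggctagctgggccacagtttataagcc
Irgm1 holds 2 overlapping interferon-response-like matches, at 30 to 21 and 24 to 15 bases before the start. Igtp holds 1, at 34 to 25 bases, and a gamma-activated-site-like match at 45 to 37. Rsad2 holds 1 interferon-response-like match on the opposite strand, at 120 to 111 bases. Of all 32851 promoters of this length, 978 (2.98%) hold the first motif and 2306 (7.02%) the second. Of the 23 matched interferon list genes, 14 and 6 hold them in at least 1 promoter. The shares count promoters and the list numbers count genes, so their units differ. A match describes the letters only.

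Of 17 measured transcripts of the VEGF-C axis, 1 was at least 2-fold higher and 2 lower, against 9.48% and 4.89% of all genes. Their median was 0.35, which turned to -0.40 over the 9 genes measured after thinning. The ligands themselves were barely captured: Vegfc held 0 UMIs in WT and 2 in KO, Vegfd 1 and 2, and their processing genes Ccbe1 and Adamts3 0 and 0. The receptor genes Flt4, given above, and Kdr, at 134 and 155 CPM, stayed under 2-fold, as did Tie1, at 126 and 161 CPM, and Vegfa, at 87.3 and 121 CPM. Angpt2, which drives remodelling of lymphatics, was 71.7 and 106 CPM, and Efnb2, the ephrin needed for valves, 112 and 180 CPM. Pgf, placental growth factor, was 284 and 128 CPM, 2.22-fold (1.82 to 2.71) lower, and Adm, the lymphangiogenic peptide adrenomedullin, 115 and 55.7 CPM, 2.07-fold (1.52 to 2.81) lower. The receptor partners of adrenomedullin, Calcrl at 148 and 137 CPM and Ramp2 at 215 and 172 CPM, lay near 1 in summed UMIs. Ramp3 held 11 and 2 UMIs. In log2 of KO over WT, Calcrl was -1.13 after thinning and -0.54 with equal weight per barcode. Kdr was -0.52 and -0.36 under these settings, but 0.62 with 3 of the 4 markers. Flt1, at 18.7 and 63.5 CPM, was past 2-fold, but vascular cells held it at 590 and 580 CPM and 83.3% of its WT UMIs came from 1 barcode. The remaining members were low: Vegfb 10.9 and 15.2 CPM, Tek 17.1 and 9.45 CPM, Ptprb 56.1 and 38.9 CPM and Ephb4 12.5 and 22.1 CPM. Nrp1 held 9 and 8 UMIs and Angpt1 0 and 1.

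Notch genes lay higher in KO, with a median of 0.75. Of 9 measured, 4 were past 2-fold higher and 0 lower, against 9.48% and 4.89% of all genes. The ligand Dll4 was 29.6 CPM in 10 WT barcodes and 76.1 CPM in 62 KO barcodes, 2.57-fold (1.59 to 4.39) higher, and Dll1 held 2 and 68 UMIs, a ratio of 11.5 (3.05 to 96.5). The target Hes1 was 238 and 525 CPM, 2.20-fold (1.85 to 2.63) higher, and the receptor Notch1 137 and 215 CPM. Outside the lymphatic cells, Hes1 was 1.35-fold (1.17 to 1.55) higher in KO vascular cells and 2.71-fold (2.59 to 2.84) higher in KO fibroblasts. At 1000 UMIs a barcode Dll4 was in 5.95% of WT and 6.29% of KO cells, against 11.9% and 43.4% unthinned and 2.47% and 2.43% of thinned vascular cells. Rbpj, the DNA-binding partner of Notch, was 87.3 and 102 CPM. Of 16 measured TGF-beta and BMP genes, 6 were past 2-fold higher, beside 9.48% of all genes, and 0 lower, with a median of 0.56. In the narrower set 3 of 14 were past 2-fold higher, and the 11 genes at 20% or more of their level in every other cell class had a median of 0.46. Smad7, the feedback inhibitor, was 17.1 and 89.8 CPM, 5.24-fold (2.85 to 10.7) higher, but 50.3% of the KO UMIs came from 1 barcode and the narrower set gave 2.08-fold. Tgfb2, a ligand, was 29.6 and 65.1 CPM and the receptor gene Bmpr2 126 and 222 CPM. Smad1, which carries the BMP signal, was 185 and 255 CPM.

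Of 16 genes of the YAP and flow response, 5 were past 2-fold higher and 0 lower, against 9.48% and 4.89% of all genes. Their median was 0.69. Cyr61, a YAP target that is also an early response gene, was 226 and 555 CPM, 2.46-fold (2.06 to 2.94) higher in lymphatic cells and 2.46-fold in vascular ones. Klf2 and Klf4, factors induced by flow, were 171 and 299 CPM and 1089 and 1610 CPM. Edn1, the endothelin gene, held 1 and 31 UMIs, and Axl, a receptor kinase, 1 and 36, with 63.9% of the KO UMIs in 1 barcode. Thbd, thrombomodulin, was 35.8 and 33.6 CPM. Of 17 valve and collecting vessel genes, 2 were past 2-fold higher and 1 lower, near those all-gene shares, with a median of 0.43. Gata2, which acts upstream of Prox1 and Foxc2 in valves, was 28.1 CPM in 10 WT and 79.8 CPM in 67 KO barcodes, 2.84-fold (1.74 to 4.93) higher. Foxc2, the valve factor, was 9.35 and 12.6 CPM, and Fat4 held 1 and 24 UMIs. Gja4, a connexin gene, was 43.6 and 6.83 CPM, with 92.9% of its WT UMIs in 1 barcode. Foxc1, at 40.5 and 59.3 CPM, and Nfatc1, at 112 and 158 CPM, were under 2-fold.

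Among 20 matrix genes, 3 were past 2-fold higher and 3 lower, against 9.48% and 4.89% of all genes. Their median was 0.21. Adamts1, a protease that trims proteoglycans and restrains VEGF, was 193 and 580 CPM, 3.00-fold (2.49 to 3.64) higher and 2.10-fold in the narrower set. Counting barcodes equally, it was 0.80 higher in log2. Fn1, fibronectin, was 12.5 CPM in 6 WT and 66.7 CPM in 41 KO barcodes, 5.35-fold (2.63 to 12.7) higher. Timp3, an inhibitor of matrix proteases, was 2012 and 2813 CPM, 1.40-fold (1.32 to 1.49) higher, and it was 578 and 1331 CPM in vascular cells. The 3 lower genes, Sparc, Mgp and Mmrn2, each owed at least 50% of their WT UMIs to 1 barcode. Junction genes were level: the median was -0.13, with 0 of 17 higher and 1, Gja4, lower. Cldn5, the tight junction claudin, was 1281 and 1193 CPM and Cdh5, VE-cadherin, 413 and 462 CPM. Esam, an adhesion molecule at 266 and 189 CPM in vascular cells, was 23.4 and 30.5 CPM.

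The median of the 17 antigen presentation genes was -0.16, and 2 lay past 2-fold in each direction. For this list and the next ones, the shares over all genes were 9.48% higher and 4.89% lower. The class I genes B2m, at 1571 and 1477 CPM, H2-D1, at 1638 and 1463 CPM, and H2-K1, at 834 and 757 CPM, differed by at most 1.12-fold. The class II gene H2-Ab1 was 29.6 and 13.1 CPM, with 68.4% and 52% of its UMIs in 1 barcode of each library. Among 16 lipid genes, 1 was past 2-fold higher and 4 lower, with a median of -0.33. Fabp5, a fatty acid carrier also abundant in keratinocytes, was 366 and 95.6 CPM, and Plin2, the coat protein of lipid droplets, 224 and 88.2 CPM. More than 40% of the Plin2 UMIs in each library came from 1 barcode, and Plin2 was 1.58-fold lower in the narrower set. Pparg, a fat cell and macrophage regulator, held 3 and 28 UMIs. Apoe, the lipid transport protein, was 2185 and 2130 CPM, but 44.2% of its KO UMIs lay in 1 barcode, and the narrower set gave 399 and 238 CPM, 1.68-fold lower in KO. For glycolysis the median was 0.03, and 1 of 20 genes lay past 2-fold in each direction. Hk1, hexokinase, was 49.9 and 121 CPM, 2.43-fold (1.68 to 3.64) higher, and Gapdh 678 and 535 CPM. Cell cycle genes were sparse: 12 of 26 were measured, 1 of them past 2-fold in each direction. Mki67, the proliferation marker, held 10 UMIs in WT and 16 in KO, and Cdkn1a, the cell cycle inhibitor p21, was 1379 and 1751 CPM. Ccnd2, a cyclin, was 21.8 and 62 CPM and 1.43-fold higher in the narrower set, and Tyms, of nucleotide synthesis, held 12 and 16 UMIs.

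**Figure D5:**
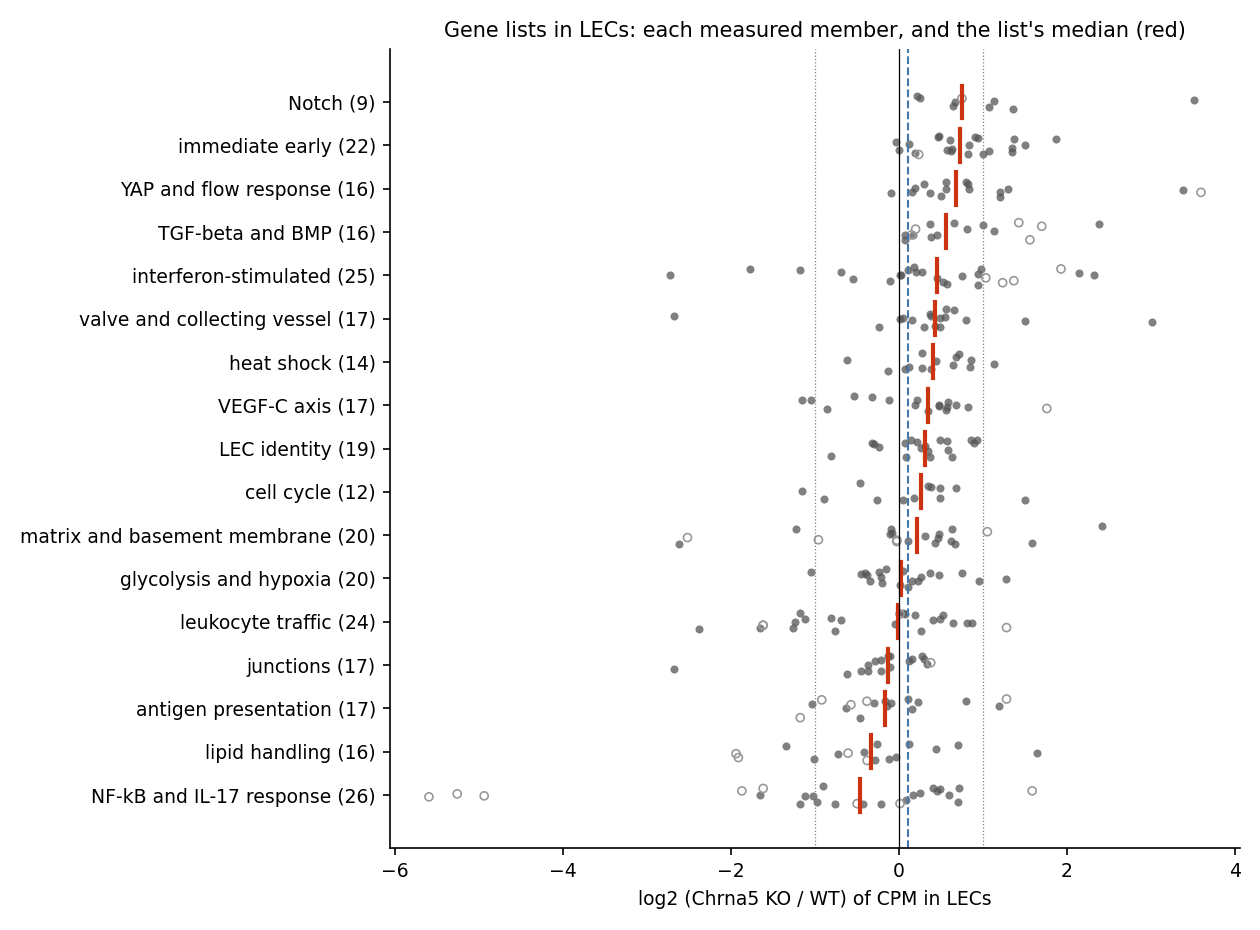
Log2 ratio of KO over WT in lymphatic endothelial cells for each measured member of the gene lists, with the list median in red, the median of all 7584 genes (0.12) as a dashed line and 2-fold as dotted lines. Open points are genes that free RNA from another cell class could give. Immediate early genes have a median of 0.73, Notch genes 0.75 and NF-kB and IL-17 genes -0.46.

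Ranked over all genes by the bound of the interval nearest to 1, the 12 leading genes higher in KO were Rnf213, Egr1, Irgm1, Smad7, Lsmem1, Fn1, Fos, Prrx1, Adamts1, Npy, Ptbp1 and Rdh10. Lsmem1, a small membrane protein, was 10.9 CPM in 6 WT and 65.6 CPM in 59 KO barcodes, 6.02-fold (2.84 to 15.3) higher. Ptbp1, a splicing regulator, was 46.8 and 167 CPM in 25 and 89 barcodes, 3.58-fold (2.46 to 5.40) higher. Rdh10, which makes retinal on the way to retinoic acid, was 14.0 and 66.7 CPM in 9 and 53 barcodes, 4.75-fold (2.43 to 10.6) higher. These 3 were spread over many cells, and were 7.85-fold, 3.50-fold and 5.82-fold higher in the narrower set. Npy, the neuropeptide Y gene, was 29.6 and 117 CPM in 5 and 19 barcodes. Prrx1, a mesenchymal factor, owed 82.3% of its KO UMIs to 1 barcode and was 1.57-fold lower in the narrower set.

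The 12 leading genes lower in KO rested on few WT cells. Acod1, the enzyme that makes itaconate, was 93.5 CPM in 15 WT barcodes and 13.7 CPM in 17 KO barcodes, 6.85-fold (4.26 to 11.3) lower and 7.71-fold in the narrower set, and was 15.0 and 1.32 CPM in vascular cells. Selp and Oasl1 are given above. Cxcl14, a chemokine also made by fibroblasts and keratinocytes, was 199 and 32.6 CPM in 14 and 16 barcodes, 6.13-fold (4.49 to 8.44) lower and 2.43-fold in the narrower set. Hist1h1b, a histone gene of dividing cells, held 47 and 4 UMIs, and Ccl5, a T cell and macrophage chemokine, 53 and 5 UMIs in 3 barcodes each. Tmem176a was 88.8 and 5.78 CPM in 9 barcodes of each library. A single WT barcode held 100% of Tmem252, 93.3% of Acp5, 98.5% of Sparc, 96.1% of Ly6a and 84.8% of Igfbp7. Without the largest barcode of each library, Sparc was 3.34, Ly6a 1.69 and Igfbp7 0.59 higher in KO on the log2 scale, the reverse of their value over all cells.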

How the data were processed

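The authors deposited, for each of 2 libraries, a matrix of UMI counts over 31053 genes with its barcodes. Cell Ranger 3.0.2, Seurat 3.0 and mm10 are named in the submitters' processing notes, and per the file headers the matrices were written by software version 3.1.0. The treatment of reads that map to several genes is not stated there. Counts of rows with the same symbol were summed. Libraries held 14557 (WT) and 10886 (KO) barcodes, of which 11626 and 9605 were kept, with median depths of 6375 and 6779 UMIs. UMIs were summed over lymphatic endothelial barcodes and divided by their total to give CPM. A ratio has a 95% interval that is exact conditional on the summed count. A gene was measured with at least 20 UMIs over both libraries and lay past 2-fold by its ratio alone. With 1 library per genotype there was no test and no p-value. A gene could be free RNA where its level was under 20% of that in another cell class in the library where it was higher. The scripts were tested on simulated data. Python 3.11.15, numpy 2.4.6, scipy 1.17.1, pandas 2.3.3 and matplotlib 3.10.9 were used.

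Genes were named by rule: 12 in each direction between libraries with at least 50 CPM in the higher one, by the interval bound nearest 1; 10 in each direction against vascular cells; all identity, VEGF-C and leukocyte traffic genes; and from each other list the member with the highest level and those with the largest ratios. One gene that the rule names is not reported here. Further members were chosen after their values were seen. The members and lists were chosen with earlier results of these data known. No doublet caller was run, and barcodes with markers of other cell types were treated through the narrower set. Positions come from GENCODE M21, which held 31011 of the gene identifiers, and promoters from RefSeq. Alternatives were 3 of the 4 markers, barcodes with a Ptprc UMI left out, thinning to 1000 UMIs, a minimum of 50 UMIs per gene or 2000 per barcode, scaling by the median ratio, equal weight per barcode and leaving out genes that free RNA could give. The narrower set and leaving out the largest barcode were added after seeing the data.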

Additional observations from a re-analysis of the deposited data

How the results depend on the processing

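No paired analysis was possible because each genotype has 1 library, and for the same reason no library could be left out. Requiring 3 of the 4 markers gave a lymphatic share of 0.525% in WT, and thinning each barcode to 1000 UMIs before applying the rule gave 0.370% in WT and 0.979% in KO, so the KO share stayed the higher one under the alternatives run. Genes at least 2-fold higher numbered 133 of 1722 measured after thinning and 315 of 5153 with a minimum of 50 UMIs, and those lower 78 and 160. Of the list medians, LEC identity was 0.10 and heat shock 0.62 in the narrower set, heat shock was 0.30 with median-ratio scaling, the VEGF-C axis was -0.40 after thinning (9 genes), TGF-beta and BMP 0.12 (7 genes), and NF-kB and IL-17 -0.065 without genes that free RNA could give (18 genes). The cause of these shifts was not tested. Thinning and the higher minimum measure fewer genes.

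Single genes past 2-fold that changed direction, in log2 of KO over WT, were Prrx1 (-0.65) and Sparc (1.65) in the narrower set, Sparc (3.34), Ly6a (1.69) and Igfbp7 (0.59) without the largest barcode of each library, Flt1 (-0.11) and Gbp4 (-0.024) with 3 of the 4 markers, and Gja4 (0.48), Mmrn2 (0.082) and Lpl (0.026) with equal weight per barcode. Of the single genes followed, those that moved beyond their counting interval without changing direction past 2-fold were 82 after thinning, against 67 that stayed within it, 57 against 211 in the narrower set, and 89 against 204 with equal weight per barcode. Depth limits sparse genes: 1 UMI in the WT lymphatic cells stands for more than 1 CPM, and genes at 0 there could lie at up to 4.68 CPM.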

Other observations

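Receptors for acetylcholine, the system that the deleted gene belongs to, were scarce in lymphatic endothelial cells of both libraries. Of 27 nicotinic, muscarinic and related genes in the tables, 4 reached 20 UMIs over both libraries. Chrnb1, the muscle-type beta subunit, held 4 UMIs in WT and 21 in KO, a ratio of 1.77 (0.597 to 7.09). Ly6e, of the Ly6 family to which several modulators of these receptors belong, was 1.25-fold (0.971 to 1.59) lower in the KO library, at 119 against 148 CPM.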
